A study of Mus musculus with 3 samples.

Results

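Small proline-rich (Sprr) proteins are short proteins that transglutaminases cross-link into the tough envelope of skin and other squamous epithelia, and their genes lie side by side in the epidermal differentiation complex on mouse chromosome 3. The 9 genes described here, Sprr1a, Sprr1b, Sprr2a1, Sprr2a2, Sprr2a3, Sprr2b, Sprr2d, Sprr2h and Sprr3, were taken by symbol from the 24346 genes of the deposited files, and all 9 were found. They were followed in 3 RNA sequencing libraries of mouse epithelial cells that EDTA had released from the gut wall, 1 each from the large, the lower small and the upper small intestine. The source names of all 3 samples begin with SPFm, which may stand for specific pathogen-free mice. The labels name no treatment or genotype for any of them, nor the number, age or sex of the mice, and describe no sorting of the cells. A strain is entered for the upper small intestine and for no other sample, and it refers to MC38, a mouse model of colorectal cancer. Should the entry hold, region cannot be told apart from strain in any comparison with that library.

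Sprr proteins are built almost wholly of short proline-rich repeats between glutamine-rich and lysine-rich ends, and those ends are where transglutaminases join them to loricrin, involucrin and each other. In the gut, Sprr2a is known as a gene of the epithelium that responds to resident bacteria and to cytokines of parasite infection, and its protein has been described as bactericidal. Sprr1a is known as a gene of stressed or regenerating epithelia.

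Levels are in FPKM (fragments per kilobase of transcript, relative to library size), and runs of 3 values are in the order large, lower small and upper small intestine. Genes at exactly 0 are described as listed at 0, since a failed estimate is also written so. Since each region is 1 library, no difference has a replicate check and no p-value is given. Genes with 1 FPKM or more in either library of a pair counted as measured there, and were called by size at a difference of at least 1 in log2(FPKM + 1), a scale that understates the change of low genes. Of the measured genes, 9.75% were called higher and 10.5% lower in the large intestine when it was set against the lower small intestine. Against the upper small intestine 11.2% were called higher and 11.7% lower, and 2.92% were called higher and 3.92% lower in the lower than in the upper small intestine. With each library rescaled to the same sum, the higher share of the calls rose from 48.2% to 63.9% in the first comparison and from 49.05% to 69.02% in the second, so both splits depend on the scale. The large intestinal library is shared by the first 2 of these comparisons, and each library enters 2 of the 3. Brackets after a ratio are exact 95% Clopper-Pearson intervals from reads implied by the spacing of low FPKM values, and cover counting error alone.

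The Sprr transcripts of the intestinal epithelium were those of the Sprr2a copies and of Sprr1a, and both were highest in the large intestine and lowest in the upper small intestine. The 3 Sprr2a copies summed to 108, 20.7 and 1.99 FPKM, and Sprr1a was at 19.5, 5.06 and 0.431 FPKM. The large intestinal level of the Sprr2a sum was thus 5.20 times that of the lower and 54.2 times that of the upper small intestine. All 4 measured members were called higher in the large intestine, against the lower as against the upper part, beside 9.75% and 11.2% of all measured genes, and both measured members were called higher in the lower than in the upper part, beside 2.92%. These counts support nothing by themselves, because most members counted as measured through their higher library alone. That was so for Sprr2a1 and Sprr2a2 throughout and for Sprr1a against the upper library, and such genes could not have been called the other way. Sprr2a3 was above 1 FPKM in all 3 libraries. No other Sprr gene reached 1 FPKM in any library. In bulk samples such as these, fewer cells with a transcript and less of it per cell cannot be told apart.

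**Figure D1:**
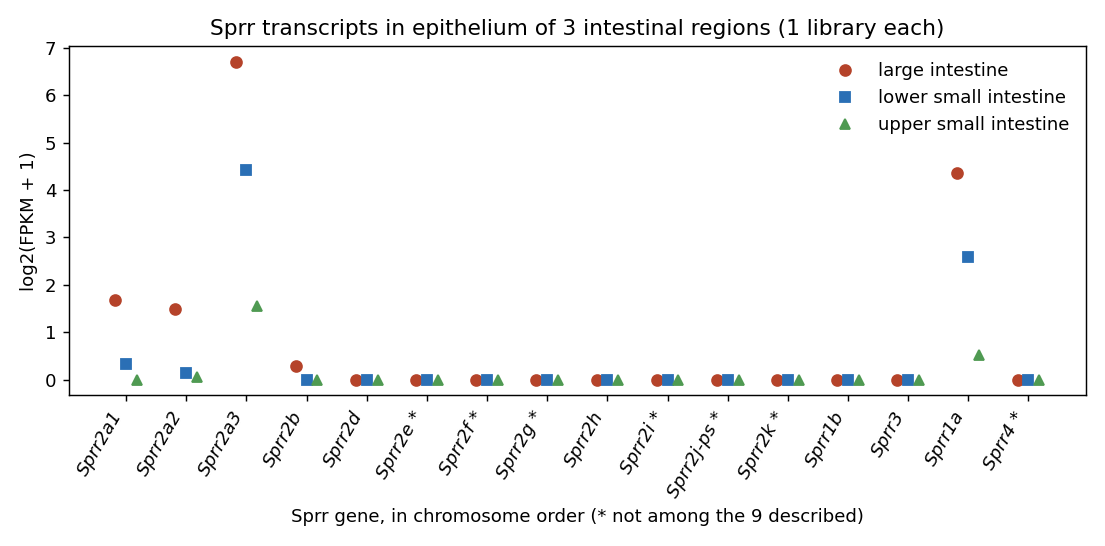
Level of each Sprr gene in log2(FPKM + 1), genes in chromosome order on the x axis, with 1 point per library (circle, large intestine; square, lower small intestine; triangle, upper small intestine). Sprr2a3 and Sprr1a stand above the rest in all 3 libraries, in the same order of regions, and 11 of the 16 genes are listed at 0 throughout.

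Nearly all of the Sprr2a signal was listed under 1 of the 3 copies. Sprr2a3 was at 103.6, 20.4 and 1.95 FPKM, which made it gene number 781 of 24346 by level in the large intestine, number 3996 in the lower and number 10477 in the upper small intestine. Its log2(FPKM + 1) difference was 2.29 between large and lower, 5.15 between large and upper, and 2.86 between lower and upper, so it was called in each comparison. Sprr2a1 was at 2.19, 0.252 and 0 FPKM, and Sprr2a2 at 1.80, 0.101 and 0.038 FPKM. Both copies therefore also had their highest value in the large intestine, with differences of 1.35 and 1.34 against the lower and 1.67 and 1.43 against the upper library. Both were measured through the large intestinal library alone, where they had to be the higher. Neither was measured between the 2 small intestinal libraries.

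The division of reads among the 3 copies is uncertain, because they are near copies of each other. In the GENCODE transcripts, 94.7% of all 50-base windows of Sprr2a1 occur unchanged in Sprr2a2 or Sprr2a3. For the 2 transcripts of Sprr2a2 this share is 96.5% and 100%, and for the 2 of Sprr2a3 it is 61.1% in the long form and 47.4% in the short form. The annotated lengths also differ: 3003 nt for Sprr2a1, 722 and 2867 nt for Sprr2a2, and 682 and 2880 nt for Sprr2a3. A read divided by a length of 682 nt weighs more in FPKM than one divided by 3003 nt, and the sources used here do not say which lengths the authors' annotation held. The order of the 3 copies within a library was thus not read as an order of their expression, and whether read sharing or length made the difference was not tested. The sum of the copies needs no order among them, although it too weighs each read by the length of the copy it was given to. On that sum the large to lower ratio was 5.20 (4.26 to 6.37), the large to upper ratio 54.2 (27.3 to 126) and the lower to upper ratio 10.4 (5.13 to 24.7), from about 513, 124 and 7.53 implied reads. All 3 intervals lay above 1, so the order of the regions was larger than counting error in these libraries.

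Sprr1a, the other expressed member, has no 50-base window in common with another Sprr transcript, so it does not have the read sharing of the Sprr2a copies. Its levels of 19.5, 5.06 and 0.431 FPKM placed it at number 3978, 8609 and 12561 of all genes. The differences were 1.76 between large and lower, 3.84 between large and upper and 2.08 between lower and upper, and each passed the size rule. The large to lower ratio was 3.85 (2.62 to 5.79), from about 106 and 36.04 implied reads. The upper small intestinal value stood on about 2.06 reads, so its ratios were wide, at 45.2 (12.2 to 378) below the large and 11.7 (3.02 to 101) below the lower library.

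The listed shares of the members in the family sum were similar in the 3 libraries although the level differed. All 9 members summed to 127, 25.8 and 2.42 FPKM. Sprr2a3 made up 81.4%, 79.01% and 80.6% of that sum, and Sprr1a 15.3%, 19.6% and 17.8%. The level of Sprr2a3 was 5.32, 4.03 and 4.52 times that of Sprr1a. The large intestinal value of this ratio was 1.32 (0.836 to 2.07) times the lower and 1.18 (0.121 to 6.48) times the upper one, with exact conditional intervals on the odds ratio of implied reads. A difference in make-up between regions was thus not detectable at this depth, and a shift of up to 2.07-fold between the large and lower libraries lies within counting error. Between the large and upper libraries the interval of 0.121 to 6.48 leaves room for a several-fold shift either way.

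The remaining 5 members gave at most a trace. Sprr2b, the gene next to the Sprr2a copies, was at 0.222 FPKM in the large intestine, about 1.17 implied reads, and was listed at 0 in both small intestinal libraries. Of its 50-base windows, 13.7% also occur in another Sprr transcript, and Sprr2a1 is the gene that holds most of them. Sprr2d and Sprr2h, further members of the same subfamily, were listed at 0 in all 3 libraries. So were Sprr1b, the closest relative of Sprr1a, and Sprr3, a member known from the oral and oesophageal lining. For Sprr3, 3 reads would have given 0.324, 0.25 and 0.372 FPKM, and for Sprr2d 0.693, 0.53 and 0.794 FPKM, so lower levels than these could have gone unseen. The other 7 Sprr genes of the files, Sprr2e, Sprr2f, Sprr2g, Sprr2i, Sprr2j-ps, Sprr2k and Sprr4, were likewise listed at 0 throughout.

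The expressed genes lay at 1 end of the cluster, the Sprr2a copies together, and near the other end, Sprr1a. The 16 Sprr genes occupy 285 kb of chromosome 3, from 92215799 to 92500493 (mm10, GENCODE M21). Sprr2a1 (92215799 to 92221911), Sprr2a2 (92215920 to 92256724) and Sprr2a3 (92285417 to 92291405) open the cluster on the plus strand. The annotated Sprr2a2 overlaps Sprr2a1, because 1 of its transcripts takes its first exon from there. Sprr1a lies near the other end, at 92483952 to 92485895 on the minus strand. Sprr4, listed at 0, is the 1 Sprr gene beyond it, at 92500263 to 92500493. Sprr2b, at a trace, and the genes from Sprr2d to Sprr3, listed at 0, lie between the Sprr2a copies and Sprr1a. The genes on either side of the cluster, Lelp1 and Ivl, which encodes the envelope protein involucrin, were listed at 0 in all 3 libraries.

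Promoters of the expressed genes and of those listed at 0 were set side by side, since these genes share a cluster and differ in level. RefSeq gave a window of 250 bases before and 50 bases after the start of each of the 9 members (GRCm38.p6, the assembly of mm10). The 250 bases before the start are shown for the 2 genes that made up most of the signal and for Sprr2d, a gene between them that was listed at 0. Capitals mark matches on either strand to TGANTCA, the binding sequence of AP-1, and to TATAAA, the TATA box.
Sprr2a3 (chr3:92285054-92285303, plus strand): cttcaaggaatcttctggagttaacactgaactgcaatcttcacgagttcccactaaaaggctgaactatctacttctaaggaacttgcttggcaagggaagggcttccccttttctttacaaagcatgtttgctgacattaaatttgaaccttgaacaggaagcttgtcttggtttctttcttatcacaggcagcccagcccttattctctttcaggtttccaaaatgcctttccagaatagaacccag
Sprr1a (chr3:92485882-92486131, minus strand): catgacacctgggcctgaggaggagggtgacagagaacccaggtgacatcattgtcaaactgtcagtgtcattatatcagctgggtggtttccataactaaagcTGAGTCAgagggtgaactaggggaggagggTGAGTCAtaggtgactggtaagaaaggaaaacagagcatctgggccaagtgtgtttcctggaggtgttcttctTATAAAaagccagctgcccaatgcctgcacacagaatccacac
Sprr2d (chr3:92338890-92339139, plus strand): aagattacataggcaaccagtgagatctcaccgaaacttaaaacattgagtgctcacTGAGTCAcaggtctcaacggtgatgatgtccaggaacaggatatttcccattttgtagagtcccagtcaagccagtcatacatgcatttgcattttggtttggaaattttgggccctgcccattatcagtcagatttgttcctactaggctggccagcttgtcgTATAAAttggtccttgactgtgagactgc

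Sprr1a holds 2 AP-1 matches, whose left ends lie at -146 and -116 from its RefSeq start, and a TATA match at -43. Sprr2d, listed at 0, holds 1 AP-1 match at -193 and a TATA match at -29. AP-1 matches stood in the windows of 5 of the 9 members and TATA matches in those of 6, against 7.79% and 13.6% of 32544 distinct RefSeq windows of 300 bases. Of the members with an AP-1 match, Sprr1a was expressed, Sprr2b was at a trace, and Sprr1b, Sprr2d and Sprr2h were listed at 0. The octamer core TTTGCAT, found in 4.65% of all windows, was present in Sprr2b, Sprr2d and Sprr2h and in neither Sprr1a nor the Sprr2a copies. The windows of Sprr2a1 and Sprr2a2 are identical, and share a run of 272 bases with that of Sprr2a3. None of these 3 holds an AP-1, TATA or octamer match. Each holds a match to AGGAAG, the letters searched for Ets factors. Sprr2a1 and Sprr2a2, but not Sprr2a3, hold a match to CACCC, searched for Klf factors. Those sequences stood in the windows of 4 and 6 of the 9 members, against 35.1% and 57.7% of all windows. The windows of the 3 Sprr2a copies are not aligned with the others, however. The 17 bases accagcccattacaggg lie at -80 in Sprr2b but at 34 after the RefSeq start of Sprr2a3, an offset of 113 bases, and GENCODE places the first exon of the long Sprr2a3 transcript at 92285417, 113 bases downstream of the RefSeq start. By the offset, the place of the TATA match of Sprr2b lies beyond the Sprr2a3 window, while the places of its AP-1 and octamer matches lie inside it. The short Sprr2a3 transcript, whose length was used for implied reads, starts 3262 bases downstream of the RefSeq start, outside the window searched. GENCODE and RefSeq starts differ for other members too, with GENCODE at -85 from the RefSeq start in Sprr2b and at -36 in Sprr2a1. No match says only that these letters are not in the window searched.

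Beyond the Sprr cluster, the listed genes of the epidermal differentiation complex that reached 1 FPKM were S100a genes. The files held 35 listed genes of the complex that are neither Sprr nor S100a genes, among them those of the late cornified envelope proteins. Of these 35, 31 were listed at 0 in all libraries and the other 4 stayed below 1 FPKM. The highest of them was Lor, which encodes loricrin, the main protein of the skin's envelope, at 0.486, 0 and 0 FPKM. S100a genes, which encode small calcium-binding proteins and flank the complex on both sides, were expressed in 8 of 14 cases. Of 8 measured between large and lower, the large intestine had 5 called higher and 2 called lower (median difference 1.76, against 0.00 for all measured genes), and of 7 measured against the upper, 5 were called higher and none lower (median 2.52, against 0.00). In all measured genes the shares were 9.75% higher and 10.5% lower, and 11.2% higher and 11.7% lower.

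The S100a genes with the largest differences lie some way from the Sprr cluster and had their highest level in the same library. S100a6 was at 1354, 88.002 and 38.1 FPKM, S100a14 at 83.2, 12.7 and 2.45 FPKM, and S100a16 at 113.6, 44.2 and 18.98 FPKM. These 3 followed the same order of regions as Sprr2a3 and Sprr1a. S100a13, at 60.01, 12.4 and 7.67 FPKM, had that order too, with a second step below the size rule. S100a1 was also highest in the large intestine but had the reverse order in the small intestine, at 171, 22.5 and 32.99 FPKM. S100a10, a partner of annexin A2, peaked in the lower part, with 351, 708 and 435 FPKM. Its difference of -1.01 between large and lower no longer passed the size rule once the libraries were rescaled to the same sum, at -0.70.

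**Figure D2:**
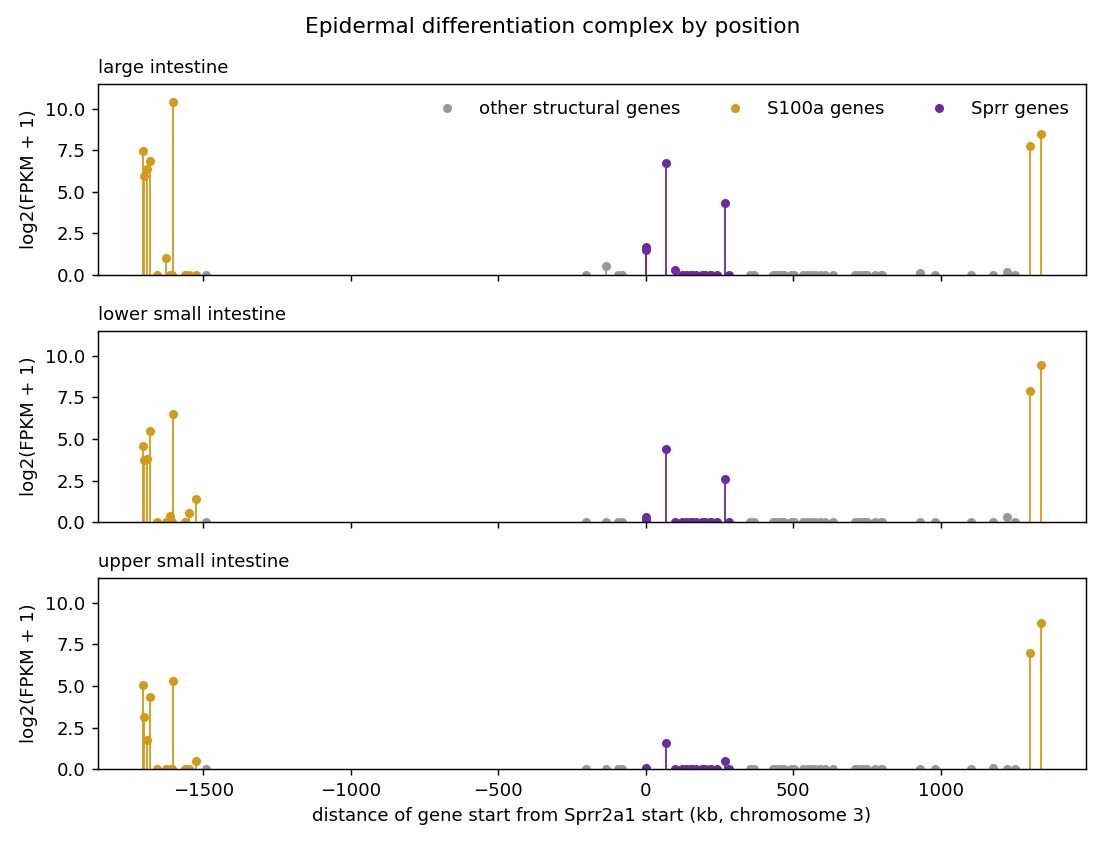
Level of the epidermal differentiation complex genes in log2(FPKM + 1) against the distance of their start from that of Sprr2a1 in kb, with 1 panel per library. Some S100a genes at both ends, and Sprr2a3 and Sprr1a in the middle, stand above the baseline. Sprr1a is down to 0.431 FPKM in the upper small intestine. Genes that are neither Sprr nor S100a, marked as other structural genes though not all encode structural proteins, stay below 1 FPKM in each panel.

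Genes whose products cross-link or carry the cornified envelope were divided. Of 10 measured, the large intestine had 3 called higher and 1 called lower than in the lower part (median 0.41), and 5 were called higher and 1 lower than in the upper (median 1.03). Of all measured genes, 9.75% were called higher and 10.5% lower in the first comparison, and 11.2% and 11.7% in the second. Tgm3, an epidermal transglutaminase that uses Sprr proteins as substrates, was at 352, 0.021 and 0 FPKM. Anxa1, encoding annexin A1, was at 95.1, 0.425 and 0.317 FPKM, and Casp14, a caspase of cornifying skin, at 8.99, 0.119 and 0.059 FPKM. Tgm2, the tissue transglutaminase, went the other way at 5.71, 65.8 and 59.7 FPKM, and Tgm1, the keratinocyte transglutaminase, was at 0, 0.066 and 0 FPKM. Tgm3, Anxa1 and Casp14 were below 1 FPKM in both small intestinal libraries, so no step between those was measured for them. They made up all of the higher calls against the lower part. Each was measured through the large intestinal library alone and could not have been called lower there. The counts of higher calls thus support nothing by themselves. The scaffold genes Evpl, encoding envoplakin, at 14.5, 12.99 and 7.22 FPKM and Ppl, encoding periplakin, at 3.04, 2.22 and 2.50 FPKM were not called. Evpl was called against the upper library, at 1.29, once libraries were rescaled. Dsp, encoding desmoplakin, was at 110.1, 68.2 and 46.6 FPKM and was called higher against the upper library, with a difference of 1.22. Slpi, a secreted protease inhibitor, was called against the upper library too, at 3.27, 2.64 and 0.939 FPKM. In that comparison it was measured through the large intestinal library alone.

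Markers of squamous epithelium, the tissue in which Sprr genes are best known and which adjoins the large intestine at the anus, were mostly below 1 FPKM. Of 22, 6 reached 1 FPKM in any library. Only 5 were measured in each comparison with the large intestine, so the lack of calls says little. None was called higher there, beside 9.75% and 11.2% of all measured genes. Perp was called against the upper library once the libraries were rescaled to the same sum, at 1.20 rather than 0.79. Ly6d was called lower against the lower library, at -2.42, beside 10.5% of all measured genes. It was measured through the lower library alone and could not have been called higher. The basal and stratified markers Krt5, Krt6a, Krt17, Trp63, Dsg3 and Krtdap were listed at 0 in all 3 libraries, and Krt14 was at 0.676, 0.058 and 0 FPKM. Dmkn, at 0.478 FPKM, and Krt16, at 0.08 FPKM, were above 0 in the large intestinal library alone. Krt1, at 0.038 FPKM, and Dsc3, at 0.016 FPKM, were above 0 in the lower small intestinal library alone. Krt13 and Krt4, keratins of the internal squamous lining, were at 0.099, 0.076 and 0 FPKM and at 0.17, 0.175 and 0 FPKM. The 6 above 1 FPKM were Krt15 (0.505, 0.611 and 1.08 FPKM), Krt10 (1.16, 1.92 and 1.80 FPKM), Sbsn (1.77, 0.641 and 2.46 FPKM), Ly6d (0, 4.35 and 0.779 FPKM), Pkp1 (12.2, 14.1 and 9.24 FPKM) and Perp (138, 111.2 and 79.3 FPKM). Perp and Pkp1 are desmosomal genes that simple epithelia also express, and they brought the list's summed level to 155, 133 and 94.7 FPKM.

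**Figure D3:**
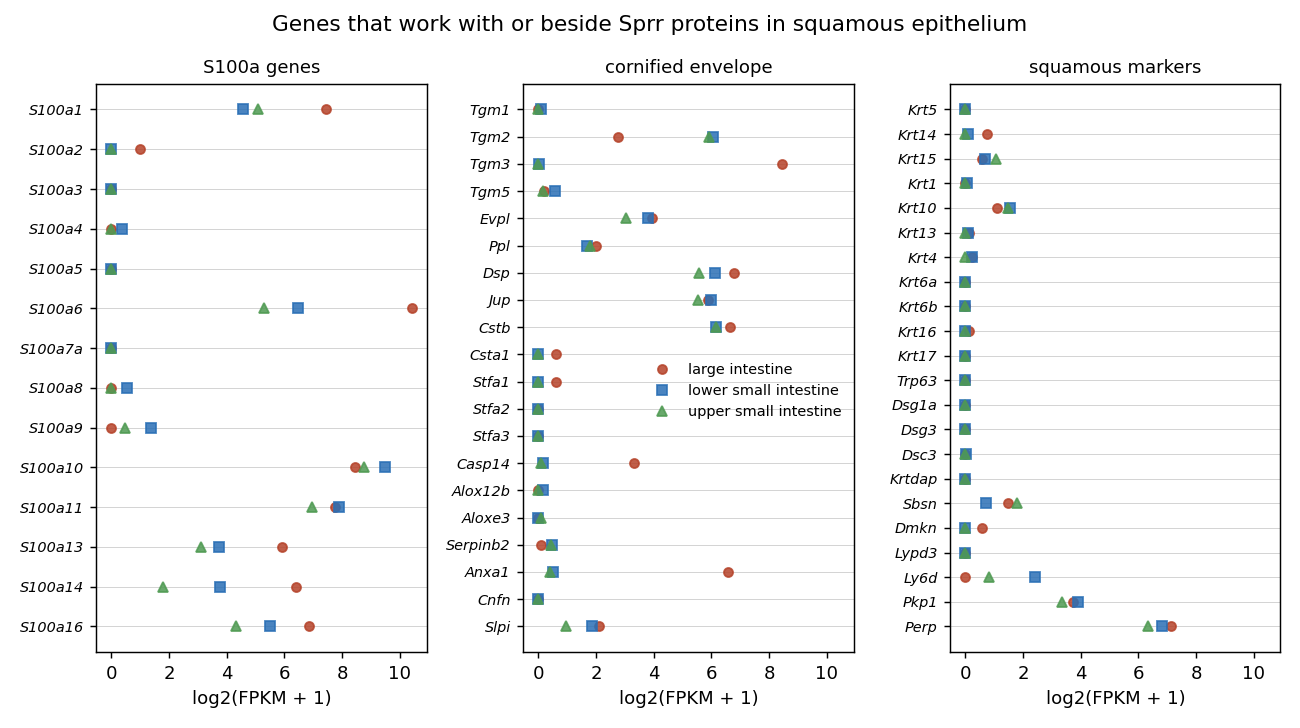
Levels in log2(FPKM + 1) of S100a genes, cornified envelope genes and squamous epithelium markers, with 1 row per gene and 1 point per library. The large intestinal points of Tgm3, Anxa1, S100a6 and Casp14 stand well above the other points and that of Tgm2 well below, whereas the squamous keratins, Trp63 and Dsg3 sit at or near 0 in all 3 libraries.

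The labelled tissue was checked against its markers. All 10 markers of intestinal epithelium were above 1 FPKM in each library, with summed levels of 8097, 8666 and 6222 FPKM. Large intestinal enterocyte markers summed to 8056, 349 and 337 FPKM and small intestinal ones to 416, 13436 and 32809 FPKM. Goblet cells, which have been described as a source of Sprr2a, had marker sums of 9728, 10108 and 7640 FPKM, and of 8 markers 2 were called higher and 1 lower against the lower library and 4 higher against the upper. Rescaling to the same sum made the first split 3 higher and 0 lower, since Clca1 went from 0.99 to 1.30 and Tff3 from -1.16 to -0.85. As deposited, 9.75% of all measured genes were called higher and 10.5% lower against the lower library, and 11.2% higher against the upper. Paneth cell markers summed to 32.8, 17736 and 17510 FPKM and T cell markers to 10.8, 542 and 539 FPKM, both low where Sprr genes were high. Myeloid and B cell markers summed to 2.94, 49.7 and 40.1 FPKM and stromal markers to 1.70, 3.22 and 2.10 FPKM. The part of these cell mixtures in the Sprr values was not tested.

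Most transcription factors that have been studied at SPRR promoters were not called. Of 18 measured, the large intestine had 4 called higher and 1 called lower than in the lower part (median 0.35), and 4 were called higher and none lower than in the upper (median 0.44). Among all measured genes, 9.75% were called higher and 10.5% lower in the first comparison, and 11.2% and 11.7% in the second. Those called higher in both were Ehf, an Ets factor of epithelia, at 125, 48.7 and 27.7 FPKM, Klf4, a factor of differentiated surface cells, at 271, 114.5 and 88.3 FPKM, Grhl2, at 16.7, 7.11 and 5.43 FPKM, and Fosl1, an AP-1 subunit, at 2.33, 0.337 and 0 FPKM. Fosl1 was measured through the large intestinal library alone and could not have been called lower. The list was chosen with earlier results known, so its counts support nothing by themselves. Irf1 was called lower against the lower library, at 80.6, 209 and 148 FPKM. The main AP-1 genes were high in all 3 epithelia, with Fos at 724, 486 and 535 FPKM and Jun at 377, 284 and 276 FPKM, and were not called. Fosb, a further AP-1 gene, was at 164.6, 81.96 and 86.05 FPKM, just under the size rule at 0.997 and 0.93, and was called in both comparisons after rescaling to the same sum, at 1.30 and 1.33. Nfe2l2 then gained a call against the lower library, at 1.05 rather than 0.74. Elf3, an Ets factor that acts on SPRR promoters in keratinocytes, was at 359.8, 371 and 340.3 FPKM. Its difference between large and lower was -0.04 as deposited and as high as 0.26 under other scalings, so its sign was not fixed.

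Genes that microbes, interleukin 22 or interleukin 13 are known to induce in this epithelium did not share 1 direction. Of 25 measured between large and lower, the large intestine had 12 called higher and 10 called lower (median 0.91), and against the upper library 12 were called higher and 8 lower (median 0.60). Over all measured genes, 9.75% were called higher and 10.5% lower in the first of these, and 11.2% and 11.7% in the second. Between the small intestinal libraries, 15 of 24 listed genes were called higher and 1 lower in the lower part, beside 2.92% and 3.92% of all measured genes. Their median was 1.72, against 0.03 for all measured genes. Reg3g, Nos2 and Clca4b were among those called lower, at 114, 12929 and 3945 FPKM, at 0.144, 114 and 11.9 FPKM and at 1.60, 492 and 373 FPKM. Saa1, at 1328, 337 and 0.944 FPKM, and Gsdmc3, a gasdermin C gene, at 135, 19.4 and 2.14 FPKM, had the order of the Sprr genes. Saa3, Retnlb, Fut2, Gsdmc2, Gsdmc4 and Ly6a of this list had that order too, with each step past the size rule. Receptors for cytokines upstream of these genes were mostly not called. Of 11 measured, none was called higher in the large intestine in either comparison, except Il6ra and Ifngr1 against the upper library once rescaled, at 1.09 and 1.17, and 2 were called lower against the lower part: Il4ra, at 4.66, 17.2 and 9.81 FPKM, and Il22ra1, at 9.90, 22.5 and 18.3 FPKM. The call of Il22ra1 was lost when libraries were rescaled to the same sum, at -0.83. As deposited, 9.75% of all measured genes were called higher and 10.5% lower against the lower part.

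A fall by the size rule at both steps, from large to lower and from lower to upper small intestine, was shared by few genes. The order large, lower, upper was that of 24.7% of the 12579 genes at 1 FPKM or more in any library, and 79 of them, 0.628%, passed the size rule at both steps. Sprr2a3 and Sprr1a were among these 79, at number 15 and 33 by the size of the whole fall from large to upper. S100a6, S100a14 and S100a16 were among them as well.

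**Figure D4:**
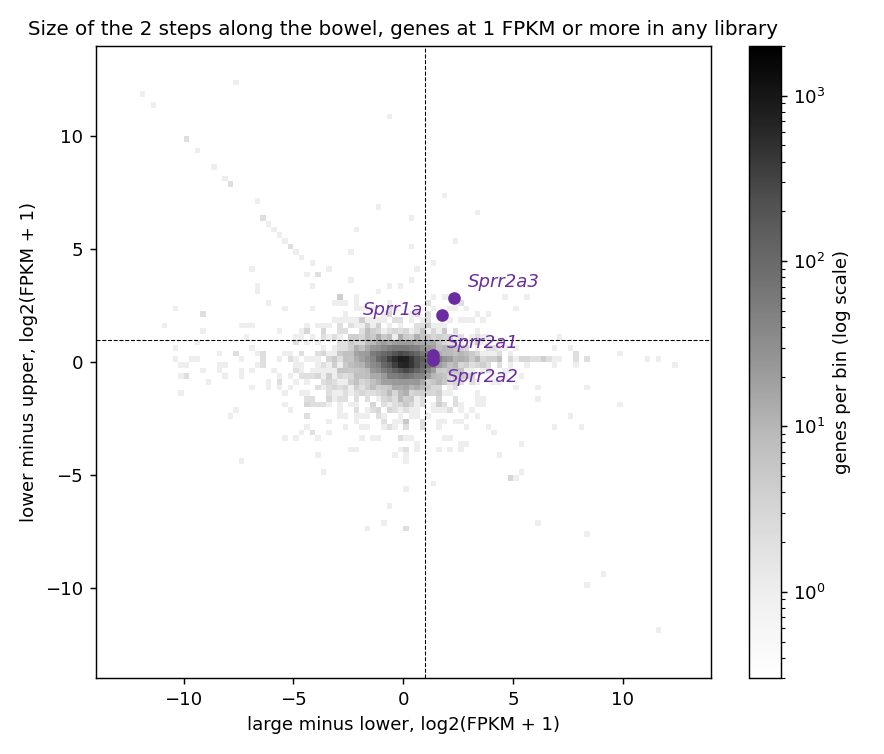
Difference between large and lower small intestine (x axis) against that between lower and upper small intestine (y axis), both in log2(FPKM + 1), with grey bins showing the number of genes on a log scale and dashed lines at 1. Sprr2a3 and Sprr1a lie in the upper right corner with 79 genes in all, and Sprr2a1 and Sprr2a2 lie to the right of the first line, with a second step that was not measured because both are below 1 FPKM in the small intestine.

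Other genes with the same division of signal among the 3 libraries were sought by the Euclidean distance between shares of the 3-library sum, over 7330 genes at 10 FPKM or more in any library. The Sprr2a sum had 82.6%, 15.9% and 1.52% of its signal in the large, lower and upper libraries. Nearest to it were Hoxb6, a homeobox gene, at 31.5, 6.11 and 0.788 FPKM (distance 0.0075), the gasdermin gene Gsdmc2, at 283, 52.2 and 8.05 FPKM (0.011), the tetraspanin gene Tspan1, at 688, 120.9 and 20.4 FPKM (0.017), and Hoxb9, at 35.2, 6.65 and 0 FPKM (0.022). In all 10 genes lay within a distance of 0.05. Sprr2a3 alone had Hoxb6, Gsdmc2, Slc2a13 and Tspan1 nearest. Sprr1a had 78.03%, 20.2% and 1.73% of its signal in the 3 libraries, and its nearest genes were Pyy, encoding the hormone peptide YY (0.0096), Saa1 (0.024), Ly6a (0.031) and the sugar transporter gene Slc2a13 (0.042), of 5 within 0.05. With 3 libraries such likeness describes these samples only.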

How the data were processed

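The deposited values are FPKM, 1 per gene and library, taken as such because Cufflinks 2.2.1 is the only quantifier in the submitters' processing notes. Bowtie2 2.2.3, TopHat2 2.0.13, SAMtools 0.1.19 and the mm10 build are named there as well. The sources used here do not give the annotation, filters or strand setting. The deposited FPKM summed to between 521651 and 693218 per library, while the libraries' median ratios to the geometric mean of each gene were 1.00, 1.01 and 0.999. Per the labels, libraries came from a stranded mRNA kit.

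Differences were taken on the log2(FPKM + 1) scale, first library less second, with a minimum of 1 FPKM and a size rule of 1, computed in Python 3.11.15 with pandas 2.3.3, NumPy 2.4.6 and SciPy 1.17.1. No test was possible with 1 library per region. Reads were implied from low values, using genes whose single transcript spans 500 nt or more. FPKM times length less a fitted fragment length of 200 or 205 nt fell within 0.1 read of a whole number in 72.5%, 72.8% and 74.8% of 668, 676 and 674 genes. With full lengths this was 42.5% to 45.3%. The steps were 0.11, 0.085 and 0.126 FPKM per read per kb. The fitted length was adopted after the data were seen, in place of the full length planned, and the shortest transcript was used. No molecular identifiers are described, so PCR copies may count as reads and intervals cover counting error only.

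The members and gene lists were chosen with earlier results of these data known. Named genes are all Sprr genes, up to 4 of largest difference per list and comparison with the large library, squamous markers at 1 FPKM or more, the 4 nearest patterns and the neighbours of the cluster. Genes named beyond this (Tgm1, Ppl, Evpl, Jun, Fos, Elf3, Fosb, Nfe2l2, Lor, S100a10 and squamous markers listed near 0 among them) were named after their values were seen. Listed genes absent from the files, such as Sprr5 and Flg, were not analysed here. The fit of step and fragment length, and the recovery of set fold changes by the size rule, were tested on simulated single-transcript genes. The ratio intervals, the pattern search, the sequence matches and the sharing of reads between copies were not simulated.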

Additional observations from a re-analysis of the deposited data

How the results depend on the processing

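The results were repeated with pseudocounts of 0.1 and 5, no filter, a filter of 5 FPKM and 3 rescalings. A pseudocount or a filter cannot reverse a difference, so only the rescalings could have changed a direction. The measured members kept theirs under all 3. The fitted length behind implied reads was chosen after seeing the data, and the full length first planned was kept as an alternative. With a pseudocount of 5, the members called higher in the large intestine fell from 4 to 2 in each comparison, and those called higher in the lower than in the upper part from 2 to 1. The log2 difference between large and upper became 4.01 for the Sprr2a sum and 4.16 for all 9 members, and that between lower and upper 2.05 for all 9 members. This follows from the larger pseudocount. With the filter of 5 FPKM, 2 members were called in each comparison with the large library, since Sprr2a1 and Sprr2a2 no longer counted as measured. Rescaling each library to the same sum moved the large to lower difference to 2.63 for the Sprr2a sum and 2.57 for all 9 members, and to 2.53 for the latter when short RNA genes were left out of the sum. Rescaling to the same sum of all genes moved the median of all measured genes to 0.27, 0.36 and 0.12 in the 3 comparisons. Reads behind the Sprr2a sum depended on the length assumed, at 2619, 653 and 42.2 with the longest transcripts and at 666 and 157 for large and lower with full lengths, and those of Sprr1a in the large intestine were 133 with full length. No paired analysis was possible because each region has 1 library, and for the same reason no library could be left out.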

Other observations

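The 79 genes that fell by the size rule at both steps along the bowel held further groups, singled out here after their values were seen. Those 79 were 0.628% of the 12579 genes at 1 FPKM or more in any library. Because the groups were picked from the 79, their counts support nothing by themselves. Of 10 genes at 1 FPKM or more whose names begin with Hoxb, 8 were among the 79, with the antisense gene Hoxb5os counted in the 8. They included Hoxb3 at 6.29, 1.68 and 0.121 FPKM and Hoxb9 at 35.2, 6.65 and 0 FPKM. Hoxb genes carry position along the body axis. Of 4 genes at 1 FPKM or more whose names begin with Gsdmc, 3 were among the 79: Gsdmc2, Gsdmc3 and Gsdmc4, the last at 372, 49.8 and 11.9 FPKM. These encode gasdermin C proteins and are near copies of each other, and how reads were divided among them was not tested. Retnlb, a goblet cell product induced by worm infection, was at 45.4, 4.65 and 0.514 FPKM, and Fut2, which adds fucose to surface glycans, at 60.4, 6.98 and 0.502 FPKM. Ly6a, an interferon-responsive surface antigen, was at 111.8, 24.9 and 4.19 FPKM.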
